A study of Mus musculus with 29 samples.

Results

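The windows examined here lie in 9 genes of the JAK-STAT pathway, Jak1, Jak2, Jak3, Stat2, Stat3, Stat4, Stat5a, Stat5b and Stat6. A window is a stretch of DNA that holds about 100 CpG cytosines over both strands, and its %DNAm is the percentage of those cytosines that were methylated. Every window that the deposited table assigned to one of the 9 genes was taken, which gave 124 of 260686 windows. Stat5b had 23, Stat4 and Jak1 had 20 each, Jak2 had 14, Stat3 had 12, Jak3 had 11, Stat5a had 10, Stat2 had 8 and Stat6 had 6. All 124 had enough values to be tested.

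DNA came from lung tissue, labelled Lung (RML), of 29 Balb/c mice, female and 13 weeks old according to the series' design text. Sham offspring (n = 7) had dams given saline into the nose and were themselves given the vehicle in place of OVA, PBS in the labels and saline in the study's methods. Sham-OVA offspring (n = 7) had such dams too but were sensitised to OVA (ovalbumin, an egg protein) with an aluminium adjuvant and then challenged with nebulised OVA, a model of allergic airways disease. PM offspring (n = 7) had dams given roadside PM2.5 into the nose before mating, during gestation and until weaning and received that vehicle, and PM-OVA offspring (n = 8) had such dams and the OVA protocol. Only dams were dosed, and by the study's methods components of PM2.5 could reach the young during lactation. The labels do not give the litters, so p-values measure the spread between animals, some of which may be littermates.

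JAKs are tyrosine kinases bound to the inner tails of cytokine receptors. When a cytokine brings receptor chains together the JAKs become active and phosphorylate the receptor, STAT proteins dock there and are phosphorylated in turn, and paired STATs move to the nucleus and bind DNA. In allergic airways the pathway carries the signals of IL-4 and IL-13 through Stat6, whereas Stat4 carries that of IL-12. In mammals, methylated CpGs are common within genes and rare in CpG islands that hold gene starts.

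One library did not match the description of its sample. Sham replicate 1 had a value in 1224 of 1230 windows on the Y chromosome, while the other libraries had one in 29 to 46 of them. The 9 genes are autosomal, and the called windows, the largest difference of each gene and the gene means are given again without this library after the account of those means. A pair of PM-OVA libraries (replicates 7 and 8) have library names unlike the rest, and the meaning of those names is not given in the sources used here. The mean %DNAm over all windows of a library lay between 67.8 and 70.2%, and the mean over the 124 windows between 66.1 and 68.6%. The tissue is a mixture of cells, so a different share of a cell type and a different methylation level within cells cannot be told apart. The data hold no expression values, and the lung label could not be checked against expressed markers.

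The following sequences show the kinds of DNA in which the differences were large and small. The first pair are the most CpG-dense 300 bases of Jak3 windows that rose after OVA, and the third is that of the Stat5b window that fell. All 3 were read from the plus strand of GRCm38. The fourth is the RefSeq promoter (250 bases before the start, on the minus strand, GRCm38.p6) of the short Stat5b transcript that starts inside the gene, and the fifth is the RefSeq promoter of Jak2, which was almost free of methylation. Capitals mark CpG.
Jak3 chr8:71679534-71679833: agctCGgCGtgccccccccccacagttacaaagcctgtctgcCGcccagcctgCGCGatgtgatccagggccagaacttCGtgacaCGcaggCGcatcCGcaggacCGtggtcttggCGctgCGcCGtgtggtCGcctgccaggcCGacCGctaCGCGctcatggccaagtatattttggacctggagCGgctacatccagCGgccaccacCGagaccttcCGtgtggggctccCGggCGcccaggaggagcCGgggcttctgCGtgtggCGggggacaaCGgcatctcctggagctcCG
Jak3 chr8:71685854-71686153: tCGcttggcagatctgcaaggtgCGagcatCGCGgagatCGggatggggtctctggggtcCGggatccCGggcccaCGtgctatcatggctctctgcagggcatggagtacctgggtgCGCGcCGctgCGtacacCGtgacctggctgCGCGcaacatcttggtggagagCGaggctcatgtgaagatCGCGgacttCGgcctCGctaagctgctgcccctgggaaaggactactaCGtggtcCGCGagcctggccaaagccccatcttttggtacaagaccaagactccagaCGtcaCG
Stat5b chr11:100825938-100826237: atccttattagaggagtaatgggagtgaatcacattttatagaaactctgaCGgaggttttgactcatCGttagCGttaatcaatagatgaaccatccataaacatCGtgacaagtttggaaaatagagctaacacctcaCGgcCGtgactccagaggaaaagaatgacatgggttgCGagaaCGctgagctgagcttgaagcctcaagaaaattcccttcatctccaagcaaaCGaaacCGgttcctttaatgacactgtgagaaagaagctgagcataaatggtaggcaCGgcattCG
Stat5b inner promoter chr11:100822571-100822820: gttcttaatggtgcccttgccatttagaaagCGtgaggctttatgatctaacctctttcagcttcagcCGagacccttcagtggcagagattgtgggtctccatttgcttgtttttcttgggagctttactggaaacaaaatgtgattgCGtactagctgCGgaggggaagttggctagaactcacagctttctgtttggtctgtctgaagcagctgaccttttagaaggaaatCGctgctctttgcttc
Jak2 promoter chr19:29251553-29251802: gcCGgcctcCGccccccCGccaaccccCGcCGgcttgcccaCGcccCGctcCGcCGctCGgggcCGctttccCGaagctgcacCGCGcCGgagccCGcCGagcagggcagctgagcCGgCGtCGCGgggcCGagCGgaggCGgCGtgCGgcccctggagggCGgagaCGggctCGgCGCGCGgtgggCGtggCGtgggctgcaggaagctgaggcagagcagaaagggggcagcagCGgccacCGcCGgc
The first Jak3 stretch held 29 CpGs and was exonic, with 275 of its 300 bases coding. The next held 25 CpGs and 193 coding bases from the part of the gene that encodes the kinase domain. The Stat5b stretch held 12 CpGs and no exon, its inner promoter held 5, and the Jak2 promoter held 37, against a median of 6 in the same 250 bases of all 32851 RefSeq promoters.

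The first question was which of these windows differed after OVA challenge. A window was called when its adjusted p was under 0.05 and the group means differed by at least 10 percentage points. In offspring of Sham dams 7 of 124 windows were called (5.65%), 6 in Jak3 and 1 in Stat5b, where 0.775% of the 259167 tested windows of the series were called. In offspring of PM dams 5 of 124 were called (4.03%), 4 in Jak3 and the same Stat5b window, against 0.584% of all windows. Every called Jak3 window rose and the Stat5b window fell. In the series, 0.479% of windows were called higher and 0.296% lower after OVA in Sham, and 0.263% higher and 0.321% lower in PM.

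By the adjusted p alone, 37 of the 124 windows rose and 24 fell in Sham offspring, while 13.3% of all windows rose and 22.3% fell. In PM offspring 25 rose and 27 fell, against 9.26% and 34.8%. The median window of the 9 genes differed by 0.521 points in Sham and -0.144 points in PM, and the median of all windows by -0.414 and -1.03 points. Centring each library on its median moved this split, so that 47 rose and 19 fell in Sham, and 44 rose and 16 fell in PM. With the same centring 47406 of all 259167 windows rose and 46061 fell in Sham, and 49017 rose and 48372 fell in PM.

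Jak3, the kinase that pairs with the common gamma chain of the receptors for IL-2, IL-4, IL-7 and other cytokines of lymphocytes, gained methylation over most of its windows and lost it at the 5′ end. The gene lies on the plus strand at chr8:71676296-71690575, and 9 of its 11 windows rose after OVA in both kinds of offspring while the 2 windows at its 5′ end fell. Its windows were short and rich in CpG. Their median length was 1648 bp, where the median over the table was 4787.5 bp. Across the 11 windows the median difference was 11.7 points in Sham and 7.64 in PM.

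The rise began in the window at chr8:71679205-71679913, which is exonic throughout in at least 1 annotated transcript, with 429 coding bases, and holds 7.05 CpGs per 100 bp. Sham libraries lay at 45.9 to 62.4% (median 51.7%) and Sham-OVA libraries at 64.4 to 84.7% (median 70.1%). PM libraries lay at 45.0 to 70.9% (median 56.9%) and PM-OVA libraries at 62.8 to 74.7% (median 68.5%). The Sham and Sham-OVA libraries did not overlap, whereas PM replicates 1 and 4 lay within the range of PM-OVA. The mean rose by 20.04 points in Sham (log2 ratio 1.30, SE 0.222, adjusted p = 4.84e-05) and by 11.3 points in PM (log2 ratio 0.68, SE 0.215, adjusted p = 0.0113). This was the most variable of the called windows, with an SD of 8.33 points in Sham-OVA and 8.12 points in PM. Without PM replicate 7, the lowest PM library, its rise in PM was 9.17 points (adjusted p = 0.0358), under the 10-point limit.

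Within the part that encodes the kinase domain, the window at chr8:71685838-71686845 held 36.0 to 45.8% (median 40.8%) in Sham and 52.8 to 67.5% (median 61.5%) in Sham-OVA. It held 36.6 to 45.7% (median 44.7%) in PM and 48.3 to 61.9% (median 56.7%) in PM-OVA. Neither pair of groups overlapped, and the lowest PM library (replicate 7) stood apart from the other PM libraries. It rose by 19.8 points in Sham (log2 ratio 1.14, SE 0.116, adjusted p = 3.79e-08) and 13.6 points in PM (log2 ratio 0.78, SE 0.113, adjusted p = 3.94e-06).

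The window at chr8:71686863-71689094, which covers the last coding exons and part of the 3′ UTR, had means of 45.2% ± 2.58 in Sham and 60.9% ± 4.27 in Sham-OVA (SD, n = 7 each). In PM it had 48.4% ± 3.84 (n = 7) and in PM-OVA 60.7% ± 4.18 (n = 8). The Sham pair did not overlap and the PM pair did. It rose by 15.7 points in Sham (adjusted p = 8.02e-07) and 12.3 points in PM (adjusted p = 9.42e-06). The next, at chr8:71689096-71689969, contains no exon of Jak3 and overlaps Insl3, which encodes an insulin-like hormone, so its signal cannot be given to either gene. There the Sham libraries held 32.1 to 38.1% (median 35.1%) and the Sham-OVA libraries 48.9 to 67.1% (median 51.6%). PM libraries held 31.6 to 40.2% (median 35.5%) and PM-OVA libraries 45.1 to 57.6% (median 50.8%). The groups were separate in both kinds of offspring, with a rise of 19.5 points in Sham (adjusted p = 3.00e-07) and 14.8 in PM (adjusted p = 5.79e-06).

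Another pair of Jak3 windows passed the 10-point limit in Sham but not in PM. The window at chr8:71679937-71681267 rose from 59.4% ± 2.67 to 71.1% ± 3.92 in Sham (SD, n = 7 each), by 11.7 points, and by 5.75 points in PM. The window at chr8:71684654-71685837 rose by 13.0 and 9.43 points, and by 10.04 points in PM without PM replicate 7. Its groups overlapped in Sham and were separate in PM, and those of the former window the reverse. Both had adjusted p-values under 0.05 in PM too (0.00431 and 8.35e-04), so the calls differ only by the limit on size. The remaining 3 of the windows that rose did so by 8.43 to 8.99 points in Sham and by 5.32 to 7.64 points in PM, all with adjusted p under 0.05. The last of them reaches past the end of Jak3, with 602 of its 2798 bp in the gene, and also overlaps Insl3 and B3gnt3.

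At the 5′ end the direction was the opposite. The window that holds the gene start (chr8:71672363-71676547) fell by 2.42 points in Sham (adjusted p = 0.0179) and fell by 1.86 points in PM (adjusted p = 0.0470), with overlapping groups in both. The next window (chr8:71676554-71679165), within which a shorter Jak3 transcript starts, held 36.5 to 40.3% (median 37.6%) in Sham and 31.7 to 36.0% (median 32.7%) in Sham-OVA, and fell by 4.35 points in Sham (adjusted p = 1.25e-04). In PM it fell by 4.11 points (adjusted p = 1.06e-04), and neither pair of groups overlapped. Without Sham replicate 1 the rises of the 6 called windows ranged from 5.75 to 21.5 points over both kinds of offspring, and the largest adjusted p was 0.0105.

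**Figure D1:**
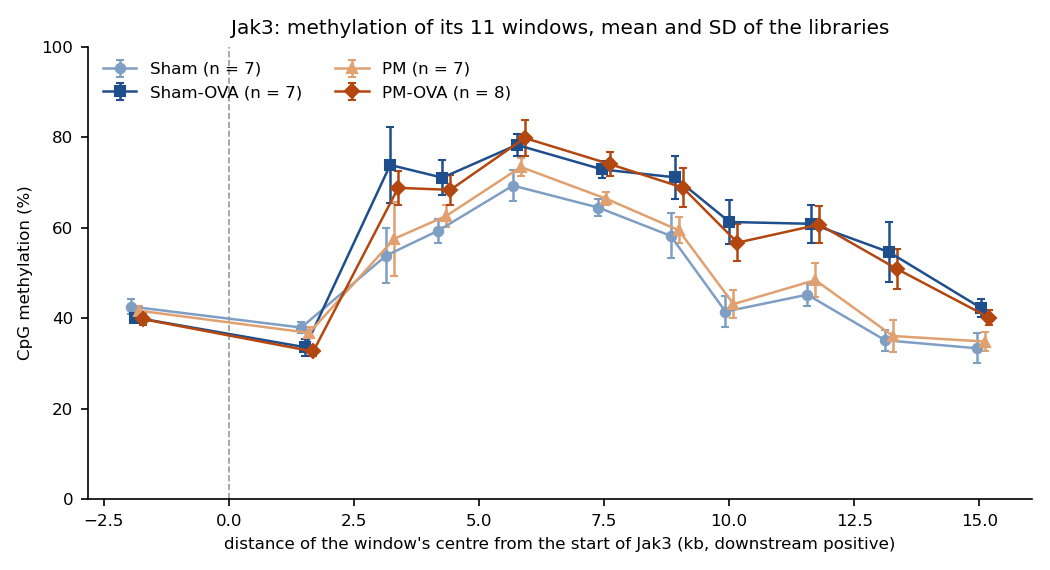
Mean %DNAm of the 11 Jak3 windows (y axis, percent) against the distance of the window's centre from the start of the gene (x axis, kb), with SD bars, in the 4 groups of libraries. From the third window on, both OVA groups lie above both groups without OVA, and in the first 2 windows they lie below.

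**Figure D2:**
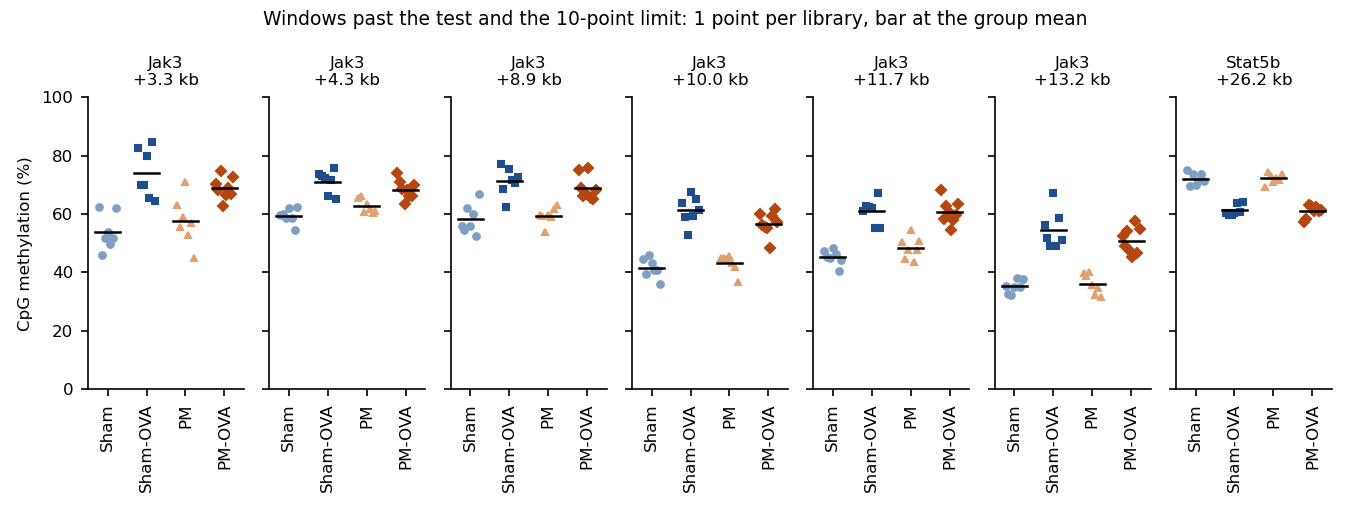
%DNAm of each library (y axis, percent) in the 7 windows called in at least 1 OVA comparison, named by gene and by the distance of their centre from the gene start (kb). Each point is a library, with 7, 7, 7 and 8 libraries in the 4 groups, and bars are group means; the 6 Jak3 windows are higher and the Stat5b window is lower in both OVA groups.

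Short windows were called more often than long ones in the series as a whole. Among all tested windows as long as those of Jak3 (709 to 4185 bp), 1.60% were called in Sham and 1.19% in PM, while 54.5% and 36.4% of the Jak3 windows were. By the adjusted p alone, 20.8% of windows of that length rose in Sham and 15.4% in PM. The called Jak3 windows in both kinds of offspring include the one that overlaps Insl3 and holds no Jak3 exon. Neighbouring windows of a gene come from the same animals and are not independent.

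Jak1 and Jak2, the broadly expressed kinases, had smaller and mixed differences. Jak1 serves interferon receptors and those of the IL-2 and IL-6 families, and lies on the minus strand at chr4:101152367-101265282. Its largest difference was in an intronic window 10519 to 18324 bp downstream of the start (chr4:101246958-101254763). That window held 51.4 to 57.6% (median 53.2%) in Sham and 43.6 to 48.9% (median 45.1%) in Sham-OVA. It held 47.7 to 52.8% (median 51.2%) in PM and 43.1 to 47.1% (median 45.0%) in PM-OVA. Neither pair overlapped, and it fell by 7.96 points in Sham (log2 ratio -0.45, SE 0.0588, adjusted p = 1.31e-06) and fell by 5.63 points in PM (log2 ratio -0.32, SE 0.0569, adjusted p = 5.67e-05). The neighbour toward the gene start fell by 4.48 points in Sham and fell by 3.75 points in PM. In all, 3 of 20 Jak1 windows rose and 3 fell in Sham, and 3 rose and 5 fell in PM. Of all windows 13.3% rose and 22.3% fell in Sham, and 9.26% rose and 34.8% fell in PM. The same shares belong beside the counts of each gene below.

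Jak2, which serves the receptors for erythropoietin, growth hormone, IL-5 and GM-CSF, lies on the plus strand at chr19:29251828-29313080. A window that contains 242 coding bases (chr19:29270549-29276348) held 80.7 to 86.1% (median 81.9%) in Sham and 75.2 to 79.4% (median 76.8%) in Sham-OVA. The values were 79.6 to 83.1% (median 82.2%) in PM and 72.9 to 77.8% (median 77.0%) in PM-OVA. It fell by 5.58 points in Sham (adjusted p = 4.91e-06) and fell by 5.38 points in PM (adjusted p = 5.22e-06), with separate groups in both. Sham replicate 1 was the highest Sham library there, and without it the adjusted p stayed under 0.05 in both. In Sham, 6 of 14 Jak2 windows rose and 2 fell, with the rises at no more than 3.62 points. In PM 1 rose and 1 fell.

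Among the STATs, Stat5b held the one called window. Stat5a and Stat5b are close relatives that carry the signals of IL-2, IL-5, GM-CSF and prolactin, and they stand beside Stat3 on chromosome 11. The Stat5b gene is on the minus strand at chr11:100780731-100850724, and its called window at chr11:100822904-100826237 is intronic. Relative to the start of a shorter Stat5b transcript it spans -3709 to -376 bp, and 1625 of its bases are within the 2000 bp before that start.

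In this Stat5b window the Sham libraries held 69.6 to 75.2% (median 71.5%) and the Sham-OVA libraries 59.7 to 64.3% (median 60.5%). The PM libraries held 69.1 to 74.5% (median 72.4%) and the PM-OVA libraries 57.4 to 63.2% (median 61.1%). No library of an OVA group reached the lowest library without OVA. The window fell by 10.8 points in Sham (log2 ratio -0.69, SE 0.0682, adjusted p = 2.37e-08) and fell by 11.3 points in PM (log2 ratio -0.72, SE 0.0661, adjusted p = 5.04e-09), close to equal sizes.

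Its neighbour over the inner start (chr11:100820309-100822789) fell by 4.89 points in Sham (adjusted p = 0.00371) and fell by 6.80 points in PM (adjusted p = 6.54e-05), with overlapping groups. Nearer the main start, the window at chr11:100841832-100844958 fell by 7.65 points in Sham and fell by 5.88 points in PM, and the one at chr11:100844966-100849434 fell by 4.17 points in Sham and fell by 4.93 points in PM. At the 3′ end of Stat5b the direction was opposite, and the last window (chr11:100780170-100782756) rose by 5.77 and 4.05 points. In all, 5 of 23 Stat5b windows rose and 6 fell in Sham, and 3 rose and 5 fell in PM, where 13.3% and 22.3% of all windows did in Sham and 9.26% and 34.8% in PM.

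Stat5a, on the plus strand at chr11:100859351-100885169, fell at its 5′ end. The window 1553 to 4815 bp downstream of the Stat5a transcript start at 100859656 (chr11:100861209-100864471) held 78.4 to 83.1% (median 81.1%) in Sham and 71.9 to 79.9% (median 75.5%) in Sham-OVA. It held 81.0 to 84.5% (median 82.1%) in PM and 71.5 to 77.7% (median 74.7%) in PM-OVA, and these last groups were separate while the Sham pair overlapped. It fell by 5.36 points in Sham (log2 ratio -0.44, SE 0.0875, adjusted p = 3.03e-04) and fell by 7.85 points in PM (log2 ratio -0.65, SE 0.0847, adjusted p = 9.28e-07). The window over the gene start (chr11:100856941-100860322) fell by 4.16 points in Sham and fell by 4.42 points in PM. In all, 2 of 10 Stat5a windows rose and 4 fell in Sham, and 0 rose and 4 fell in PM. Further downstream, at chr11:100870020-100873842, Stat5a rose by 5.06 points in Sham (adjusted p = 4.02e-04), and in PM the difference was 2.27 points (adjusted p = 0.0827).

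Stat4, which carries the IL-12 signal in T and natural killer cells, lies on the plus strand at chr1:51987148-52107189 and has a second transcript start within it. The windows just after that inner start fell. The first (chr1:52008710-52012728, 467 to 4485 bp downstream) had means of 35.4% ± 2.05 in Sham and 30.1% ± 2.47 in Sham-OVA (SD, n = 7 each). It fell by 5.32 points in Sham (adjusted p = 7.70e-04) and fell by 5.26 points in PM (adjusted p = 4.46e-04).

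The next Stat4 window (chr1:52012729-52021621) held 72.7 to 76.3% (median 75.4%) in Sham and 66.3 to 70.9% (median 69.1%) in Sham-OVA. PM libraries held 71.6 to 76.4% (median 74.8%), with replicate 4 apart from the others, and PM-OVA libraries 65.5 to 68.2% (median 67.3%). Neither pair overlapped. It fell by 6.03 points in Sham (log2 ratio -0.42, SE 0.0535, adjusted p = 9.93e-07) and fell by 7.48 points in PM (log2 ratio -0.51, SE 0.0518, adjusted p = 2.09e-08). A further window in the middle of the gene (chr1:52048512-52056738) fell by 4.69 points in Sham and fell by 5.66 points in PM, again with separate groups. In all, 2 of 20 Stat4 windows rose and 3 fell in Sham, and 2 rose and 8 fell in PM. The shares of all windows were 13.3% and 22.3% in Sham, and 9.26% and 34.8% in PM.

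Stat6, the STAT of IL-4 and IL-13, lies on the plus strand at chr10:127642986-127660957, and 1 of its 6 windows passed the test. That window (chr10:127652784-127655325), 9798 to 12339 bp downstream of the start and with 333 coding bases, held 57.4 to 60.9% (median 58.0%) in Sham and 63.6 to 70.6% (median 67.7%) in Sham-OVA. It held 57.7 to 63.1% (median 61.0%) in PM and 65.9 to 72.8% (median 69.4%) in PM-OVA. The groups were separate in both kinds of offspring, and the window rose by 9.08 points in Sham (log2 ratio 0.55, SE 0.0714, adjusted p = 1.15e-06) and 8.15 points in PM (log2 ratio 0.51, SE 0.0691, adjusted p = 1.57e-06), just under the 10-point limit. The other 5 windows of Stat6 differed by 0.251 to 2.37 points in Sham.

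Stat2, which carries type I interferon signals, also rose. It lies on chromosome 10 at 128270559 to 128292849, and 5 of its 8 windows rose in Sham, 3 rose in PM, and 0 fell in either. The rises in Sham include the last window (chr10:128292816-128297654), which has 34 of its 4839 bp in Stat2 and overlaps Il23a. In the window with the largest difference (chr10:128278074-128281467, with 490 coding bases) the Sham libraries held 76.3 to 81.1% (median 79.3%) and the Sham-OVA libraries 81.6 to 85.8% (median 84.7%). PM libraries held 74.3 to 81.6% (median 77.4%) and PM-OVA libraries 82.3 to 88.1% (median 85.0%). Both pairs were separate, with a rise of 5.64 points in Sham (log2 ratio 0.51, SE 0.0914, adjusted p = 7.73e-05) and 7.30 in PM (log2 ratio 0.68, SE 0.0885, adjusted p = 9.39e-07).

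Stat3, the STAT of the IL-6 family, held falls and rises of like size. The gene is on the minus strand at chr11:100885098-100939540. Its second window (chr11:100932219-100938782) is intronic and held 53.5 to 60.1% (median 56.0%) in Sham and 48.4 to 52.3% (median 49.3%) in Sham-OVA. It held 52.8 to 58.7% (median 55.3%) in PM and 46.4 to 52.9% (median 48.7%) in PM-OVA. The Sham pair was separate, and the PM pair overlapped slightly. The window fell by 6.76 points in Sham (log2 ratio -0.39, SE 0.0612, adjusted p = 1.96e-05) and fell by 6.93 points in PM (log2 ratio -0.39, SE 0.0593, adjusted p = 6.44e-06). In the middle of the gene, the window at chr11:100910778-100914942 rose by 7.16 and 5.33 points, and nearer the 3′ end the one at chr11:100896288-100899958 fell by 5.49 points in Sham and fell by 4.90 points in PM. In Sham, 4 of 12 Stat3 windows rose and 4 fell, and in PM 3 rose and 2 fell.

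Several gene starts were almost free of methylation in all groups. Of the 124 windows, 9 (7.26%) had a mean under 5% in every group, 4 of them over the start of a gene, and they belonged to Jak1, Jak2, Stat3, Stat5a, Stat5b and Stat6. Over all tested windows the share was 5.62%. The Jak2 window that holds the gene start (chr19:29251594-29251893), whose bases include part of the promoter printed above, is 300 bp long and reached 2.84% in its highest library. Stat3 held at most 0.694% in any library over its start (chr11:100938783-100939586). Stat6 reached 2.15% (chr10:127642611-127643849) and Stat5b 4.56% (chr11:100850689-100851522). The largest difference after OVA among these 9 windows had a size of 1.53 points (Sham) and 1.21 points (PM), in the Stat5a window at chr11:100860329-100861155, which fell from 3.203% ± 0.219 to 1.67% ± 0.354 in Sham (SD, n = 7 each, adjusted p = 4.19e-04). There PM-OVA replicate 6 held 5.32%, above every PM library (at most 4.24%), and the other PM-OVA libraries held 1.46 to 2.47%.

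The other start windows were partly methylated. The window over the Jak1 start, most of which lies upstream of the gene, held 37.4% ± 1.30 in Sham, with differences of 1.02 points in Sham (adjusted p = 0.219) and 1.65 points in PM (adjusted p = 0.0329). The Stat2 start window held 26.6% ± 0.990 and the Stat4 start window 69.9% ± 1.65 in Sham. Their differences were 0.970 and 1.65 points in Sham and -0.755 and -0.0237 points in PM, with adjusted p-values from 0.143 to 0.993. The motif TTCNNNGAA, to which STAT pairs can bind and which reads the same on both strands, was in 0 of the 12 RefSeq promoters (300 bases each) of the 9 genes and in 8.30% of all 32851 RefSeq promoters.

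In Sham, a larger share of windows fell near the 5′ ends than further on. Over the other 8 genes, without Jak3, 11 of 40 windows centred within 20 kb downstream of the gene start fell and 7 rose in Sham. Beyond 20 kb 10 of 68 fell and 21 rose. In PM, 9 fell and 4 rose within 20 kb, and 15 fell and 11 rose beyond it, so that the shares that fell were close (22.5% and 22.1%). Over the windows of all genes in Sham, 18.1% fell and 14.9% rose within 20 kb, and 25.4% fell and 12.8% rose beyond it. In PM the corresponding shares were 28.2% and 10.8% within 20 kb, and 39.5% and 8.64% beyond it. The nearer and further windows do not come from the same mix of genes, since all 6 Stat6 windows and 6 of the 8 Stat2 windows lie within 20 kb. The 20 kb limit was chosen after the values were seen, and the counts are a description.

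**Figure D3:**
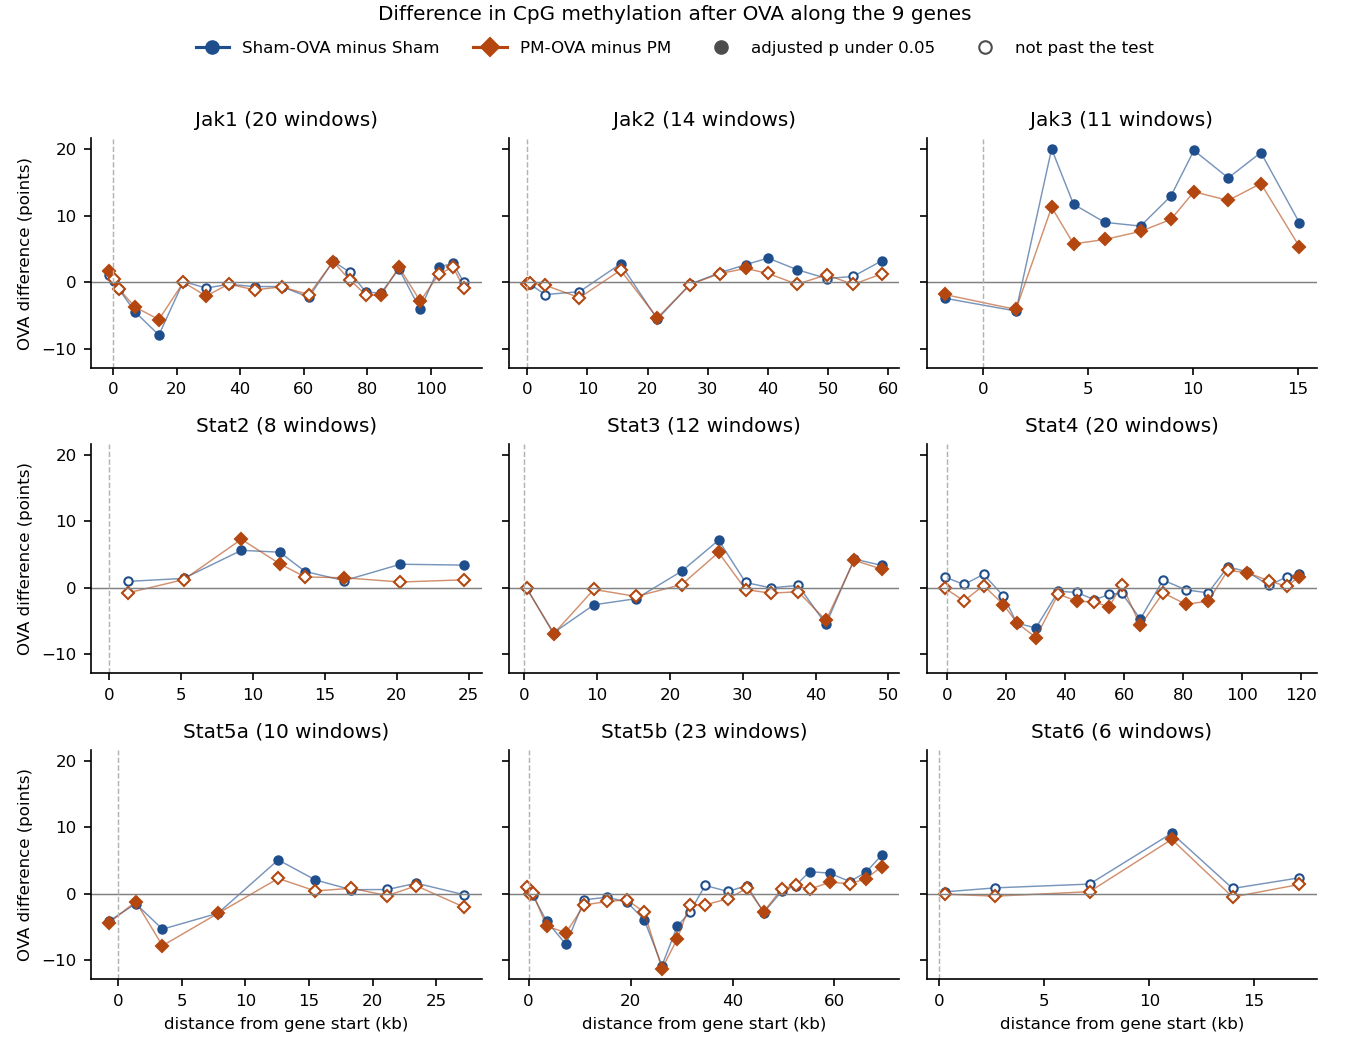
Difference in %DNAm after OVA (y axis, percentage points) for all 124 windows against the distance of the window's centre from the gene start (x axis, kb), 1 panel per gene, for Sham-OVA minus Sham and PM-OVA minus PM. Filled points have an adjusted p under 0.05 and open points do not; Jak3 is the gene with the large rises, up to 20.04 points, and Stat5b holds the lowest point, at -11.3.

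Averaged over all windows of a gene, Jak3 had the largest difference of the 9. Its mean was 49.2% ± 1.26 in Sham, 60.0% ± 2.53 in Sham-OVA, 51.0% ± 1.46 in PM (SD, n = 7 each) and 58.3% ± 1.74 in PM-OVA (n = 8). Sham libraries spanned 47.7 to 50.7% and Sham-OVA libraries 57.6 to 63.3%. PM libraries spanned 48.9 to 52.9% and PM-OVA libraries 55.7 to 60.8%, so neither pair overlapped. The rise was 10.8 points in Sham (log2 ratio 0.62, SE 0.0546, adjusted p = 5.87e-09) and 7.32 points in PM (log2 ratio 0.42, SE 0.0529, adjusted p = 4.56e-07).

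At this level, which pools each gene's windows, 4 of the 9 genes passed the test in Sham, with Jak3, Stat2 and Stat6 higher and Stat5b lower. Of all 38163 genes, 11.9% were higher and 27.5% lower in Sham, and 6.89% were higher and 47.1% lower in PM. Stat2 rose by 2.99 points in Sham (adjusted p = 1.43e-05) and 2.08 points in PM (adjusted p = 3.71e-04). Stat6 rose by 2.46 (adjusted p = 3.49e-04) and 1.47 points (adjusted p = 0.0122). Stat5b fell by 0.762 points in Sham (adjusted p = 0.0417) and 1.24 in PM (adjusted p = 7.17e-04). The Sham call of Stat5b was lost without Sham replicate 1 (adjusted p = 0.0606) and without Sham replicate 2, 3, 4 or 5 or Sham-OVA replicate 3, 4 or 5 (up to 0.0992 for Sham-OVA replicate 3), and with centred libraries (0.504).

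In PM, Stat4 and Stat5a fell too, which made 6 of 9 genes. Stat4 fell by 1.37 points (adjusted p = 3.43e-04) and Stat5a by 1.42 points (adjusted p = 8.73e-04). In Sham their differences were -0.407 and -0.432 points (adjusted p = 0.292 and 0.333). For both genes the interaction of OVA with the dam's exposure did not pass (limma adjusted p = 0.464 and 0.485), so a dependence on the dam was not shown. Jak1, Jak2 and Stat3 passed in neither Sham nor PM, though Jak1 was near the threshold and passed in both with means weighted by window length. Jak1 differed by -0.634 and -0.648 points (adjusted p = 0.0903 and 0.0582), Jak2 by 0.520 and -0.0635 points (adjusted p = 0.204 and 0.877), and Stat3 by 0.166 and -0.193 points (adjusted p = 0.760 and 0.679). With each library centred on its median, the falls of Stat4, Stat5a and Stat5b in PM no longer passed (adjusted p = 0.280, 0.298 and 0.949), and Stat3, Jak1 and Jak2 rose in PM by 0.873, 0.418 and 1.00 points. In Sham, centring made Stat3 (0.6254 points, adjusted p = 0.0385) and Jak2 (0.980 points, adjusted p = 4.27e-04) pass as rises. Without the pair of PM-OVA libraries with unlike names, Stat6 in PM did not pass (adjusted p = 0.0677).

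**Figure D4:**
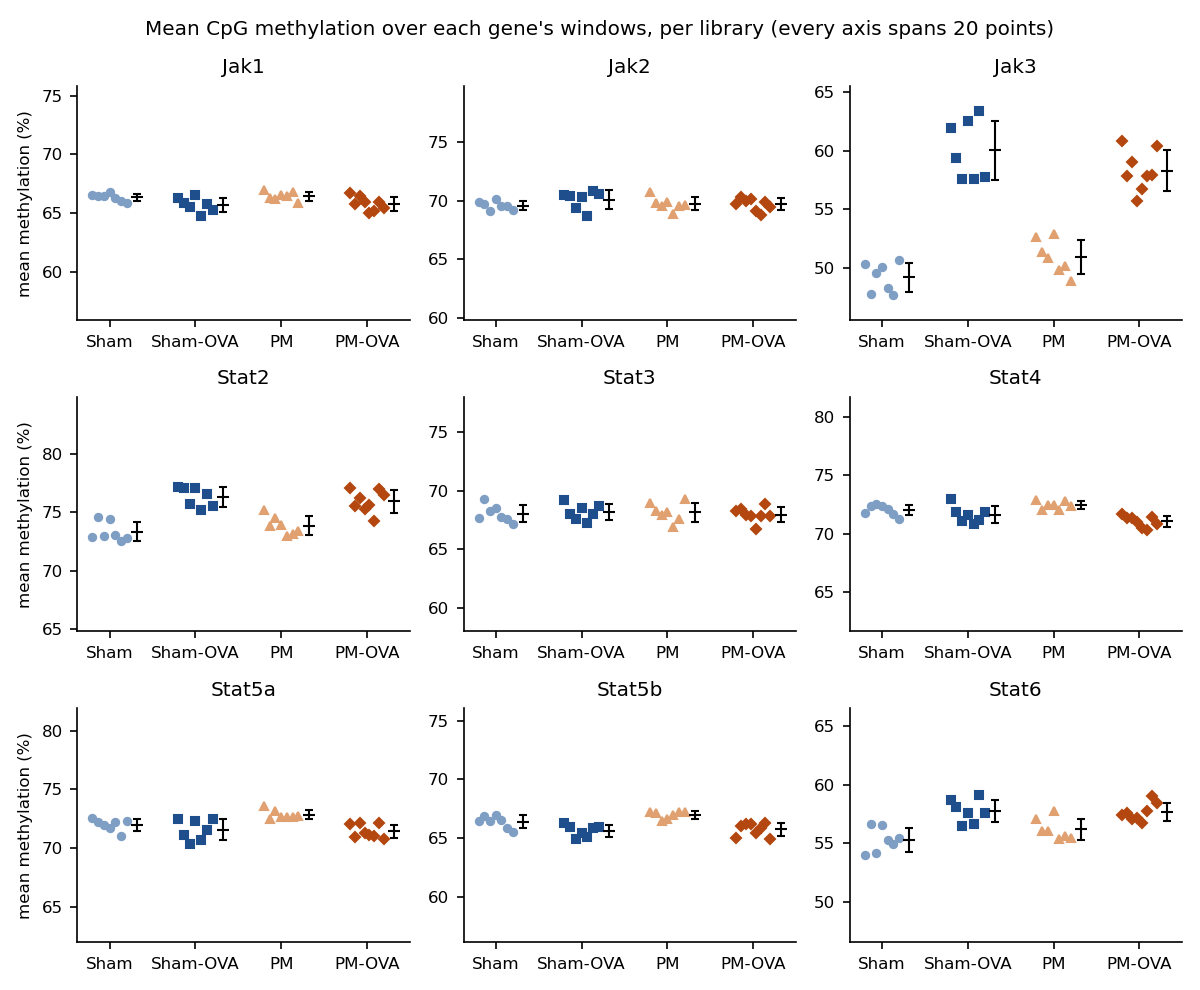
Mean %DNAm over the windows of each gene (y axis, percent) in every library of the 4 groups, with the group mean and SD beside the points; every y axis spans 20 points but starts at its own level. Jak3 is the gene whose groups with and without OVA lie far apart, at 47.7 to 52.9% without OVA and 55.7 to 63.3% with it.

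Without Sham replicate 1, 36 windows rose and 22 fell after OVA in Sham by the adjusted p alone, with 24 and 26 in PM, and the 7 and 5 called windows stayed at those numbers. Of all windows 32019 then rose and 53140 fell in Sham, and 24058 and 90880 in PM, with 1945 and 1513 called. The 6 called Jak3 windows rose in Sham by 11.8 to 21.5 points. The Stat5b window starting at 100822904 differed by -10.3 points in Sham (adjusted p = 9.43e-08) and the Stat5a window by -5.23 points (adjusted p = 8.31e-04). The Stat4, Stat3, Jak1 and Jak2 windows with the largest mean difference over both OVA comparisons stood at -5.95, -6.90, -7.75 and -4.97 points in Sham. Those of Stat6 and Stat2 stood at 8.91 and 5.81 points. The adjusted p-values of the windows of these genes were up to 1.36e-04. Gene means of Jak3, Stat2 and Stat6 rose by 11.03, 2.92 and 2.24 points in Sham (adjusted p up to 0.00122). Those of Jak1, Jak2, Stat3, Stat4 and Stat5a differed by -0.607, 0.565, 0.104, -0.445 and -0.339 points and did not pass. Comparisons between dams and the interaction still had 0 called windows.

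The second question was whether the dam's exposure made a difference. Between PM and Sham offspring without OVA, and between PM-OVA and Sham-OVA, 0 of 124 windows passed the test, as did 0% of the 259167 windows of the series in each comparison. Among the 124, an unadjusted p under 0.05 was found for 9 windows without OVA and 4 with OVA, and among all windows for 15003 and 15450. The smallest p without OVA was in the last Jak2 window (chr19:29308349-29313129). It held 84.7 to 87.5% (median 85.3%) in Sham and 86.3 to 90.3% (median 87.6%) in PM, with overlapping groups, a difference of 2.06 points (limma adjusted p = 0.805). With OVA it was in another Jak2 window (chr19:29293518-29299778), at 86.4 to 90.3% (median 88.9%) in Sham-OVA and 86.7 to 88.5% (median 87.5%) in PM-OVA. These overlapped as well, with a difference of -1.21 points (limma adjusted p = 0.816).

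The interaction tests whether the OVA difference depended on the dam. It was called for 0 of 124 windows and 0% of all windows, and 7 of the 124 and 19166 of all windows had an unadjusted p under 0.05. The smallest was in the Jak2 window at chr19:29293518-29299778, which differed by 1.88 points after OVA in Sham and -0.319 in PM (limma adjusted p = 0.567). In Jak3 the rise was smaller in PM than in Sham in each of the 9 windows that rose, with a difference of the rises (PM minus Sham) between -8.77 and -0.794 points, and 3 of the 11 Jak3 windows had an unadjusted interaction p under 0.05. The smallest adjusted p among them was 0.608. For the mean over Jak3 the difference of the rises was -3.52 points (SE 0.0761 on the log2 ratio scale, limma adjusted p = 0.462). A dependence on the dam was thus not shown for Jak3, and the calls that passed in Sham and not in PM do not show one.

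The genes whose mean followed that of Jak3 most closely over the 29 libraries were Rps6ka4 (Pearson's r = 0.971), Thra (r = 0.966) and Qk (r = 0.960), out of 38037 genes compared. They differed by 3.83, 3.94 and 5.03 points in Sham. For Stat5b they were Ripor2 (r = 0.888), Lcorl (r = 0.878) and Gm48765 (r = 0.878), which differed by -0.625, -0.465 and -0.875 points in Sham. All share the same libraries and the same split into OVA and other animals, and these values are a description.

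Other genes of the pathway are given by lists of receptors, inhibitors and target genes. The receptors that signal through JAKs had 309 windows in 32 of 33 genes (Il2rg had none). In Sham 6 were called higher and 5 lower (3.56%), and in PM 5 and 5 (3.24%), against 0.775% and 0.584% of all windows. By the adjusted p alone 68 rose and 76 fell in Sham, and 47 and 100 in PM, while of all windows 13.3% rose and 22.3% fell in Sham and 9.26% rose and 34.8% fell in PM. The rises included Epor, the erythropoietin receptor, by 13.7 and 15.1 points (Sham and PM, chr9:21959574-21961483), Il12rb1, a chain of the IL-12 receptor, by 14.6 and 13.0 points (chr8:70819359-70820841), Ifnar2, a chain of the type I interferon receptor, by 14.5 and 13.9 points, and Csf2ra, a chain of the GM-CSF receptor, by 17.3 and 13.0 points. Csf2rb, the shared chain for IL-3, IL-5 and GM-CSF, differed by -12.6 and -11.2 points and Il6ra by -11.0 and -12.2 points. Another Il12rb1 window (chr8:70806988-70811051) differed by -7.26 and -10.3 points, past the 10-point limit in PM.

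The inhibitors had 195 windows in 18 genes, of which 1 was called higher and 5 lower in Sham, and the same numbers in PM (3.08% in each, against 0.775% and 0.584% of all windows). By the adjusted p alone 25 rose and 46 fell in Sham, and 22 and 57 in PM, where 13.3% and 22.3% of all windows did in Sham and 9.26% and 34.8% in PM. The largest was Ptprc, which encodes the leucocyte phosphatase CD45, at chr1:138168721-138175449. It went from 69.3% ± 1.36 to 50.2% ± 3.44 in Sham (SD, n = 7 each), a difference of -19.1 and -16.5 points in Sham and PM. A second Ptprc window differed by -14.6 and -12.2 points. Sh2b3, which encodes an adaptor that restrains Jak2 signalling, differed by 15.0 and 17.2 points.

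The target genes had 86 windows in 13 of 14 genes (Foxp3 had none). In Sham 3 were called higher and 2 lower (5.81%), and in PM 0 and 2 (2.33%), again with 0.775% and 0.584% as the share of all windows. Without the 10-point limit there were 15 rises and 15 falls in Sham and 9 and 17 in PM, beside 13.3% and 22.3% of all windows in Sham and 9.26% and 34.8% in PM. The 3 called rises were all in Bcl2l1, which encodes a protein that protects cells from apoptosis, by 11.5, 10.8 and 10.2 points in Sham, and the same windows rose by 8.72, 8.38 and 5.84 points in PM. Pim1, a kinase induced by Stat5 signalling, went from 61.8% ± 2.54 to 41.1% ± 5.22 in Sham at chr17:29493168-29496952 and differed by -20.6 and -19.3 points. Myc, the growth regulator, differed by -13.4 and -12.0 points.

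Windows in markers of cell types were counted in the same comparisons. The leucocyte list (Ptprc, Coro1a, Laptm5 and Vav1, of which Ptprc is also an inhibitor) had 36 windows, of which 6 were called in Sham and 7 in PM, all lower (16.7 and 19.4%, against 0.775% and 0.584% of all windows). On the adjusted p alone, 14 rose and 16 fell in Sham and 11 rose and 19 fell in PM, and of all windows 13.3% rose and 22.3% fell in Sham and 9.26% rose and 34.8% fell in PM. Its mean level was 67.9 to 69.9% in Sham libraries and 65.9 to 67.6% in Sham-OVA libraries, and 69.04 to 70.1% in PM and 66.02 to 66.8% in PM-OVA, so that neither pair overlapped. The myeloid and eosinophil list (38 windows) had 76.3 to 77.3% in Sham, 74.3 to 76.1% in Sham-OVA, 76.7 to 78.1% in PM and 74.5 to 75.2% in PM-OVA. Of its windows 4 rose and 15 fell in Sham and 3 rose and 18 fell in PM, with 1 called in Sham and 0 in PM. Their part in the differences of the JAK and STAT genes was not tested.

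For the other lists the shares of all windows were the same, 0.775% and 0.584% called, 13.3% higher and 22.3% lower in Sham and 9.26% higher and 34.8% lower in PM. The T cell list (27 windows) spanned 69.3 to 71.4% in Sham and 68.0 to 69.5% in Sham-OVA, and 70.1 to 71.8% in PM and 67.7 to 69.5% in PM-OVA. By the adjusted p alone, 5 rose and 10 fell in Sham and 2 rose and 10 fell in PM, with 1 window called in each, lower. Of 58 B cell windows 16 rose and 14 fell in Sham and 13 rose and 18 fell in PM, and 3 were called in each, 1 higher and 2 lower (Ms4a1 had no window). Of 45 epithelial windows 11 rose and 4 fell in Sham and 5 rose and 6 fell in PM, and of 88 endothelial windows 36 rose and 12 fell in Sham and 32 rose and 19 fell in PM. The endothelial list spanned 68.8 to 71.3% in Sham and 70.8 to 73.1% in Sham-OVA, with overlap, and 68.6 to 72.1% in PM and 70.6 to 72.8% in PM-OVA. Of 70 mesenchymal windows 16 rose and 23 fell in Sham and 10 rose and 29 fell in PM, and 0 were called. The epithelial list had 1 called window in Sham and 0 in PM, and the endothelial list 3 and 2.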

How the data were processed

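Methylation was measured by whole-genome enzymatic methyl sequencing of lung DNA. The authors trimmed reads with Trim Galore, aligned and called them with DRAGEN against GRCm38, and deposited the percent of methylated cytosines per window, with a window needing at least 10 informative CpGs. The deposited percentages hold no read counts, so depth is unknown here and neither a counting interval nor a count test could be made.

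All 29 libraries were grouped by the labels. Each library had a value in 258952 to 260135 of 260686 windows. Percentages were turned into log2((percent + 1)/(100 - percent + 1)) and fitted with limma (3.58.1, R 4.3.3), with all 4 groups in 1 fit, over 259167 windows with at least 3 values in every group (1519 were left out). P-values were adjusted by the Benjamini-Hochberg method over all tested windows. A log2 ratio is the difference on that scale and points are differences of mean percentages. Gene means were unweighted means over the windows of a gene ID (38163 genes) and were called by the adjusted p alone. The scripts were tested on simulated data. The comparisons were OVA in Sham, OVA in PM, PM without OVA, PM with OVA and their interaction, and the OVA comparisons share no samples with each other, while those between dams use the same libraries as the OVA comparisons.

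Annotation came from GENCODE M21 (pysam 0.24.0, pandas 2.3.3) and promoters from RefSeq. The 9 genes and all lists were chosen with earlier results of these data known. The windows named are those called, the window of each gene with the largest mean difference after OVA, the window with the smallest p in each other comparison, windows over gene starts and, for the lists, the 12 called windows with the largest differences, of which 1, like 1 short list of genes, is not reported here; their neighbours and a few others were chosen after their values were seen. Il2rg, Foxp3 and Ms4a1 had no window and were not analysed here.

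Alternatives were another offset, the percent scale, centred libraries, other thresholds, fits of the compared groups alone, other filters, replicate blocks, length-weighted gene means and leaving out libraries. For samples with the same number in their titles, the correlations of the deviations from the group means lay between -0.0340 and 0.0563. Such values cannot show whether samples shared a litter, which the labels do not give.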

Additional observations from a re-analysis of the deposited data

Results flagged for a closer look

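In 12 of 128 sets of values from 1 group, a single library lay further from the rest than Dixon's 95% limit allows. Chance alone gives about 1 in 20 such sets.

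Of these, 6 lay in windows that differed after OVA. In the Jak3 window starting at 71685838, PM replicate 7 held 36.6% where the next PM library held 41.9%. In the Stat4 window starting at 52012729, PM replicate 4 held 71.6% and the next 74.5%. In the Jak2 window starting at 29270549, Sham replicate 1, the library with signal on the Y chromosome, held 86.1% against 82.8% for the next, and PM-OVA replicate 7 held 72.9% against 75.5%. Sham-OVA replicate 7 held 52.3% in the Stat3 window starting at 100932219, where the next held 50.1%. PM replicate 1 held 52.6% in the Stat5a window starting at 100856941, and the next held 50.5%.

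The other 6 sets lay in nearly unmethylated windows over gene starts. In the Stat6 window starting at 127642611, PM replicate 6 held 1.46% and PM-OVA replicate 1 held 2.12%, with the next libraries at 0.591 and 0.376%. In the Stat3 window starting at 100938783, Sham replicate 7 held 0.694%, Sham-OVA replicate 6 held 0.0833% and PM-OVA replicate 5 held 0.111%, with the next libraries at 0.1, 0 and 0%. In the Jak2 window starting at 29251594, PM replicate 1 held 2.84% and the next PM library 0.75%.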

How the results depend on the processing

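The 7 windows called after OVA in Sham and the 5 in PM kept those counts with another offset, on the percent scale, with other filters on missing values, with only the compared groups in the fit and without any single library, except that the windows starting at 71679205 and 71684654 changed places in PM without PM replicate 7. With centred libraries and without the PM-OVA libraries of unlike name, 6 were called in PM. With a limit of 5 points the counts were 24 in Sham and 22 in PM, against 15435 and 15259 of all tested windows. At an adjusted p under 1e-06 the counts of called windows were 4 and 1, with 3 and 1 windows higher and 4 and 4 lower by that p alone, and 1 gene mean in each, Jak3. Of all windows 1031 and 919 were called at that threshold. By that p alone 822 of all windows were higher and 2121 lower in Sham, and 449 and 5044 in PM. Of all 38163 gene means 595 passed in Sham and 1573 in PM. Centring gave 44 windows higher and 16 lower in PM (49017 and 48372 of all windows) and reversed the gene means of Stat3 (0.873 points), Jak1 (0.418) and Jak2 (1.00) in PM. The comparisons between dams and the interaction had 0 called windows under every alternative run. The cause of these shifts was not tested. With a replicate block, from either the titles or the library names, 7 and 5 windows were called, and the Stat5b gene mean in Sham did not pass (adjusted p = 0.0504 with the titles); with the library names neither did Stat6 in PM. The block changed no other call. Stat5b in Sham also failed with only the compared groups in the fit. Jak1, near the threshold, passed with length-weighted means in both (0.0251 and 0.0213), without Sham-OVA replicate 4 in both, and in PM without Sham-OVA replicate 5, PM replicate 7 or PM-OVA replicate 1 or 3. Over the single libraries left out, 3 to 4 gene means passed in Sham and 6 to 7 in PM. The depth of each window is unknown, which limits what the nearly unmethylated windows can show.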
